A study of Caenorhabditis elegans with 6 samples.

Results

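The genes described here are 10 chaperone, disulfide-forming and stress-sensing genes of the endoplasmic reticulum (ER) in Caenorhabditis elegans. They are hsp-3, hsp-4, crt-1, pdi-1, pdi-2, pdi-6, ero-1, ire-1, xbp-1 and pek-1. They were taken by name from a deposited table of 25212 genes, and all 10 were found. The table holds 6 libraries of poly(A) RNA from whole animals of the wild-type strain N2. The 3 ASP libraries come from animals given aspartame, at 100 µM according to the series' design text. The 3 Control libraries come from animals of the same strain labelled only as controls. Both groups carry the replicate numbers 1, 2 and 3. The labels do not give the age or stage of the animals. It is also unstated whether replicates were separate cultures, and whether the worms used for RNA had been placed on Pseudomonas aeruginosa, which the design text names for the test of innate immunity. The p-values below therefore reflect only how these libraries vary among themselves, and that variation may be technical.

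Secreted and membrane proteins fold in the ER with the help of BiP-type HSP70 chaperones, lectin chaperones and protein disulfide isomerases. When unfolded proteins accumulate, the membrane sensors IRE-1, PEK-1 and ATF-6 start the unfolded protein response. IRE-1 cuts xbp-1 mRNA, which is then spliced to encode an active transcription factor that raises chaperone genes, hsp-4 among them. PEK-1 phosphorylates the translation factor eIF2alpha and lowers protein synthesis. In the worm the response is needed for larval development and for surviving the secretory load of an immune response to P. aeruginosa.

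Total counts ran from 53558562 to 63581942 per library, and every member had at least 2006 counts in each library. Levels are given as FPKM, a fragment count corrected for transcript length and library depth, so that genes of different length can be compared. Same-numbered ASP and Control libraries deviated together. Summed over 12 molting markers, such as the collagen gene sqt-3, the level was 273 and 320.1 FPKM in ASP 1 and Control 1. It was 504 and 630 in ASP 2 and Control 2, and 1523 and 1372 in ASP 3 and Control 3. Summed over 6 vitellogenins, the yolk protein genes, it was 2547 and 3108 in ASP 1 and Control 1. It was 2771 and 2558 in ASP 2 and Control 2, and 922 and 999 in ASP 3 and Control 3. Number 3 thus stood apart in both sums, and number 2 lay between numbers 1 and 3 in the molting sum. Markers of body wall muscle, pharynx, intestine, neurons and germ line, as well as oocyte genes, were above 0 in every library, as whole animals would give.

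The members sat at very different levels that kept nearly the same order in all libraries. Averaged over the 6 libraries, crt-1 was highest at 851 FPKM. It was followed by pdi-2 at 614, hsp-3 at 295, pdi-1 at 221, xbp-1 at 167, hsp-4 at 154, pdi-6 at 134, ero-1 at 42.9, ire-1 at 24.1 and pek-1 at 8.44 FPKM. The span from pek-1 to crt-1 was 100.9-fold. The ranges of neighbours overlapped for crt-1 and pdi-2, hsp-3 and pdi-1, xbp-1 and hsp-4, and hsp-4 and pdi-6. Within a library, only xbp-1 and hsp-4 changed places, with xbp-1 the higher in 4 of 6 libraries. The lumenal chaperones and isomerases thus stood above both sensor kinases in every library. Together the 10 genes held 0.293% to 0.409% of the summed FPKM in ASP libraries and 0.306% to 0.389% in Control libraries.

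**Figure D1:**
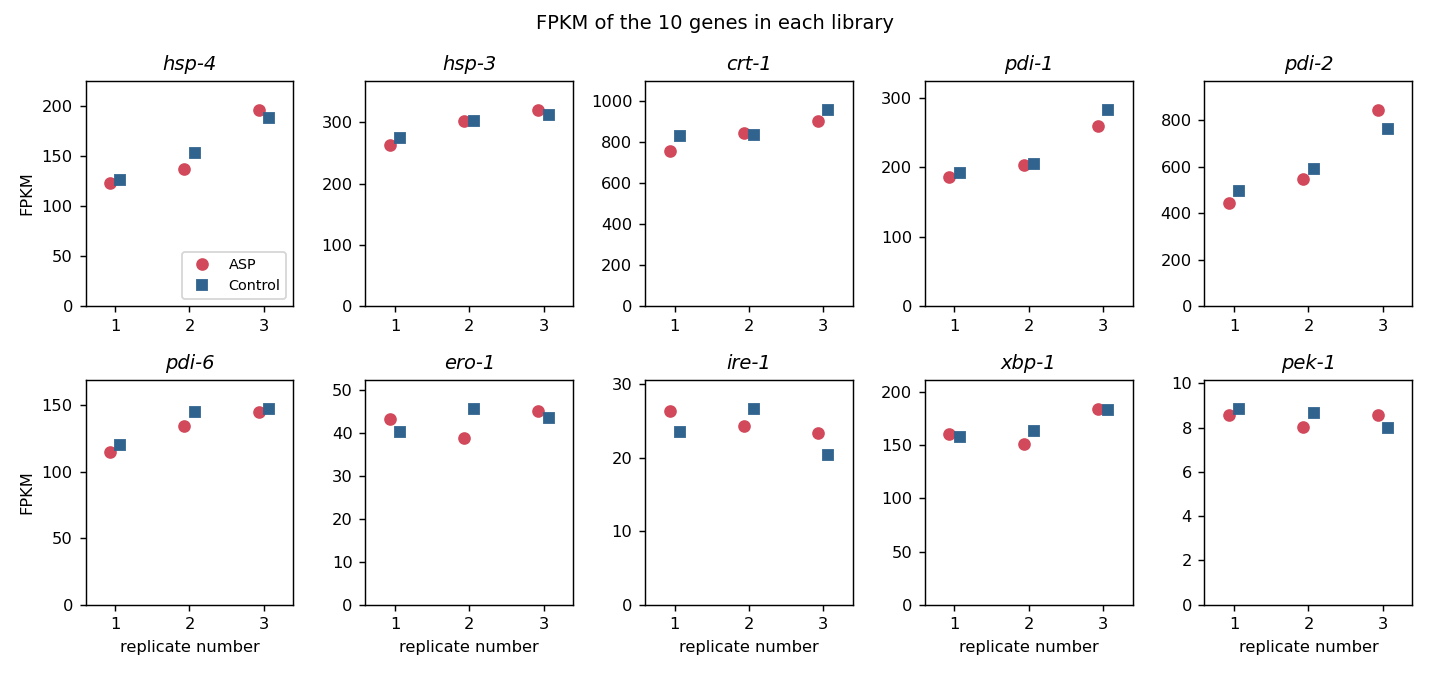
FPKM of each member in each library, plotted against replicate number, with circles for ASP and squares for Control and each vertical axis starting at 0. For hsp-4, pdi-1 and pdi-2 the ASP and Control points of a number lie close together, and both libraries numbered 3 lie above the other 4. For ero-1 the points farthest apart are those of number 2, 39.0 FPKM in ASP 2 and 45.7 in Control 2.

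The genes lie on 5 chromosomes, in coordinates of the build WBcel235. On X are hsp-3 (minus strand, 6089033 to 6091785), pdi-2 (plus, 4524155 to 4526536), pdi-6 (minus, 7066342 to 7068563) and pek-1 (minus, 11410176 to 11414887). Chromosome II holds hsp-4 (minus, 7350112 to 7352518) and ire-1 (minus, 8112243 to 8124910), and chromosome III holds pdi-1 (minus, 3699739 to 3701461) and xbp-1 (plus, 4193809 to 4195358). The others are crt-1 on V (minus, 6098992 to 6100542) and ero-1 on I (plus, 14664449 to 14674841). All 10 are protein-coding and are assigned by the deposited table to the KEGG pathway of protein processing in the ER. The table gives hsp-3 and hsp-4 the same KEGG orthology entry, as it does pdi-1 and pdi-2. Sequences were not compared, so how far the counting could have exchanged reads within each pair is not known. The use of strand is not given in the sources used here, and 4 members overlap another gene. Overlaps were taken between gene start and end, introns included, so they are not lengths of shared mRNA. The largest overlap, 6456 bases, is that of ire-1 with unc-105 on the opposite strand, which was listed at 5.14 to 6.61 FPKM. The others are 92 bases of crt-1 with smut-1 (10.8 to 16.3 FPKM), and 18 bases of pdi-2 and 141 bases of pdi-6 with noncoding RNAs that stayed at or under 1.09 FPKM.

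The comparison of ASP with Control asks whether aspartame changed the ER stress response. None of the 10 genes passed the test, and the groups overlapped for all 10. In edgeR's quasi-likelihood test, adjusted over all genes, 0 of 10 members and 0% of the 13790 tested genes had an adjusted p under 0.05. The count at an unadjusted p under 0.05 was also 0 for the members, against 62 genes, or 0.45%, of those tested. All 10 members passed the filter of a mean of at least 1 FPKM. Of the 10, 9 had a log2 difference below 0 and 1 above, with a median of −0.05 against 0.00 over all tested genes. The count of members above 0 became 8 without Control 3, 6 without ASP 1 and 5 without ASP 2, in fits with no block. Groups that did not overlap in FPKM were found for 0 of 10 members and for 3.39% of all tested genes. With the replicate number as a block in edgeR, 0 members and 0% of genes passed, and 0 of 10 members against 2.68% of genes had an unadjusted p under 0.05. In whole-animal RNA, a change in cell number and a change in RNA per cell cannot be told apart.

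The BiP genes come first, since hsp-4 is the usual reporter of the worm's ER stress response. hsp-4, the BiP that IRE-1 and XBP-1 induce, stood at 124, 137 and 196 FPKM in ASP 1, 2 and 3 and at 127, 153 and 188 in Control 1, 2 and 3. Both libraries numbered 3 were high, whether aspartame was given or not. The group means were 152 ± 38.5 and 156 ± 31.1 FPKM (SD, n = 3), a log2 difference of −0.06 (SE 0.25, 95% interval −0.67 to 0.55, edgeR adjusted p 0.9999). This interval, from the fit without the replicate block, leaves room for a 1.47-fold rise or a fall to 0.628 of the Control level. With the block the log2 difference was −0.07 (SE 0.07, 95% interval −0.23 to 0.10), which narrows the room to 1.07-fold and 0.854 of the Control level. hsp-3, the BiP gene that is high without stress, stood at 262, 301 and 319 FPKM in ASP and at 274, 303 and 311 in Control. Its log2 difference was −0.03 (SE 0.14, 95% interval −0.36 to 0.31), with the 2 groups interleaved.

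The ratio of hsp-4 to hsp-3 within a library does not depend on how libraries are scaled. For numbers 1, 2 and 3 it was 0.471, 0.454 and 0.613 with aspartame, against 0.462, 0.505 and 0.606 without. The highest ratio in each group was that of number 3. The mean log2 ratio differed by −0.04 between ASP and Control (exact permutation test, two-sided, p = 0.8, n = 3 per group). With 3 libraries against 3 the smallest p this test can give is 0.1.

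Among the other folding factors, crt-1 encodes calreticulin, a calcium-binding lectin chaperone. It stood at 753, 842 and 899.9 FPKM in ASP and at 826, 833 and 953 in Control, with a log2 difference of −0.09 (SE 0.15, 95% interval −0.44 to 0.27). The ASP library was below its Control partner in numbers 1 and 3 and slightly above it in number 2. ero-1 encodes the oxidase that recharges disulfide isomerases. It stood at 43.3, 39.0 and 45.3 FPKM in ASP and at 40.4, 45.7 and 43.6 in Control. The log2 difference was −0.04, with an SE of 0.11 and a 95% interval from −0.30 to 0.22. Its highest and lowest libraries were both numbered 2, the only such case among the members.

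The isomerases form and rearrange disulfide bonds. PDI-2 also serves as the beta subunit of the prolyl 4-hydroxylase that modifies collagen chains. pdi-2 stood at 445, 547 and 843 FPKM in ASP and at 494, 589 and 764 in Control (means 612 ± 207 and 616 ± 137, SD, n = 3). Its spread within each group was the widest of the 10 genes. Without the replicate block, its 95% interval for the log2 difference of −0.03 accordingly reached from −0.77 to 0.71. With the block its log2 difference was −0.06 (SE 0.09, 95% interval −0.27 to 0.15), a range from 0.829 to 1.11 of the Control level. The blocked 95% intervals of all 10 members lay within −0.30 to 0.23. pdi-1 stood at 187, 203 and 259 FPKM in ASP and at 192, 205 and 282 in Control (log2 −0.09, SE 0.23). pdi-6, a homolog of mammalian PDIA6 per the deposited table, stood at 115, 135 and 145 FPKM in ASP and at 120.4, 145 and 147 in Control (log2 −0.09, SE 0.15). pdi-1 and pdi-6 were the 2 members lower in ASP in every number, and no member was higher in every number. Over all tested genes, 21.7% had 1 direction in all 3 numbers, close to the 2 of 10 seen here.

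Among the sensors and their transcription factor, ire-1 was the only member with a difference above 0. ire-1, the kinase and endonuclease, stood at 26.3, 24.3 and 23.3 FPKM in ASP and at 23.5, 26.6 and 20.3 in Control (log2 0.06, SE 0.10, 95% interval −0.18 to 0.29). It was higher in ASP in numbers 1 and 3 and lower in number 2. The overlapping gene unc-105 had the same directions, at 6.12, 5.14 and 6.61 FPKM in ASP and 5.49, 5.37 and 6.01 in Control. Whether unc-105 reads entered the ire-1 values was not tested. xbp-1 stood at 161, 151 and 184 FPKM in ASP and at 158, 163 and 184 in Control (log2 −0.05, SE 0.14, 95% interval −0.39 to 0.29). Its gene-level value adds the unspliced and spliced forms, so that the splicing by IRE-1 was not measured here. pek-1, the sensor kinase of translation, stood at 8.59, 8.02 and 8.57 FPKM in ASP and at 8.84, 8.65 and 7.98 in Control (log2 −0.03, SE 0.10, 95% interval −0.26 to 0.19). It had the narrowest range of the members, with its highest library 1.11 times its lowest.

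Within numbers, the members did not move one way. In number 1, 7 of 10 were lower in ASP, with a median log2(ASP/Control) of −0.04 in FPKM. In number 2, 9 of 10 were lower (median −0.11), and in number 3 only 3 of 10 were (median 0.05). All tested genes had medians of 0.02, −0.03 and 0.06 in the same numbers, on the scale of log2(FPKM + 1).

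**Figure D2:**
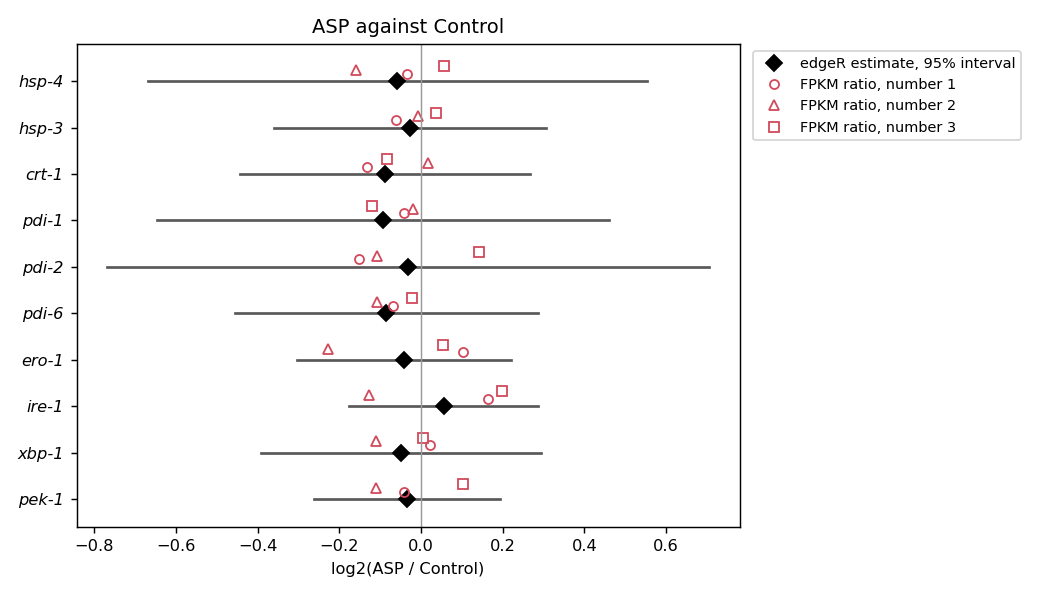
Log2 ratio of ASP to Control for each member. Diamonds give the edgeR estimate with its 95% interval, and open symbols give the FPKM ratio within numbers 1, 2 and 3. The intervals come from the fit without the replicate block. All 10 intervals include 0, and the widest is that of pdi-2, from −0.77 to 0.71. With the block, which is not drawn, all 10 lay within −0.30 to 0.23.

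The spread of the members lay between replicate numbers instead. Of the sum of squares of log2(FPKM + 1) over the 6 libraries, numbers held a median of 91.9% for the members and 76.7% over all tested genes. The groups held 1.87% and 3.59%. The share of the numbers was highest for pdi-1 (97.3%) and lowest for ero-1 (21.4%) and pek-1 (35.7%). It was over 50% for 8 of the 10 genes. The median of all tested genes, 76.7%, was over 50% too, so this count does not set the members apart. Numbers were therefore compared in pairs, with 2 libraries each (1 ASP, 1 Control) and the group as a covariate in edgeR. What a number stands for is not in the labels.

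Number 3 had more chaperone and isomerase RNA than number 1, while the sensor kinases did not pass. Of the 10 members, 7 passed as higher and 0 as lower in this contrast. Of all tested genes 37.5% passed, made up of 18.3% higher and 19.1% lower (2527 and 2640 genes). In limma on log2(FPKM + 1) the split was 1884 higher and 3323 lower, and against number 2 it was 1096 and 2098 where edgeR gave 1670 and 1676. At an unadjusted p under 0.05 the counts were 7 of 10 members and 47.2% of all tested genes. The members' median log2 difference was 0.33, and that of all tested genes was −0.01. Levels of 7 members were higher in both libraries numbered 3 than in the other 4, a pattern found in 20.4% of all tested genes. For pdi-6 this holds by less than the digits given, with ASP 3 and Control 2 both at 145.007 FPKM. Those of 6 members were lower in both libraries numbered 1 than in the other 4, as in 14.6% of all tested genes. Against number 2, 4 of 10 members were higher in number 3 and passed and 0 were lower, while 12.1% of all tested genes were higher, 12.2% lower and 24.3% either. At an unadjusted p under 0.05 these counts were 4 of 10 and 37.9%. Between numbers 2 and 1, 0 of 10 members passed, against 3.84% of all genes (2.7% higher and 1.14% lower in number 2). At an unadjusted p under 0.05 the counts there were 3 of 10 and 18%.

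hsp-4, pdi-1 and pdi-2 carried the largest of these differences. pdi-2 was 1.83-fold higher in number 3 than in number 1 (log2 0.88, SE 0.11, edgeR adjusted p 0.000678) and 1.51-fold higher than in number 2 (adjusted p 0.00709). The difference between numbers 3 and 1 was present in both groups, at 1.89-fold in FPKM within ASP and 1.55-fold within Control. hsp-4 was 1.65-fold higher in number 3 than in number 1 (log2 0.72, SE 0.09, edgeR adjusted p 0.000459) and 1.42-fold higher than in number 2 (adjusted p 0.00456). Its FPKM folds of number 3 over number 1 were 1.59 within ASP and 1.49 within Control. pdi-1 was 1.53-fold higher in number 3 than in number 1 (log2 0.61, SE 0.09, edgeR adjusted p 0.00138) and 1.42-fold higher than in number 2 (adjusted p 0.00601). These 3 genes passed in number 3 against number 1 under all 12 alternatives tried. pdi-2 did not pass against number 2 without ASP 3 (log2 0.50, adjusted p 0.0571).

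The remaining calls were smaller and less firm. Between numbers 3 and 1, log2 was 0.41 for pdi-6 (adjusted p 0.00486), 0.33 for hsp-3 (adjusted p 0.0277), 0.33 for crt-1 (adjusted p 0.0490) and 0.31 for xbp-1 (adjusted p 0.0203), all in edgeR. xbp-1 also passed in number 3 against number 2 (log2 0.32, adjusted p 0.0245). pdi-6 lost its call without ASP 1 or Control 1 (adjusted p 0.0773 and 0.0714). Between the same numbers, hsp-3 and crt-1 lost theirs without any 1 of the 4 libraries compared, with adjusted p from 0.107 to 0.337 for hsp-3 and from 0.132 to 0.425 for crt-1. xbp-1 lost its call there without ASP 1, Control 1 or Control 3 (adjusted p 0.154, 0.277 and 0.0537). Against number 2, xbp-1 lost it without any library but ASP 3 (adjusted p 0.0632 to 0.106). On the FPKM scale, which placed number 3 lower by 0.0976 in log2 against number 1 over all tested genes, limma called 4 of the 7.

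The oxidase gene and both sensor kinase genes did not pass. ero-1 was at log2 0.19 in number 3 against number 1 (SE 0.09, 95% interval −0.02 to 0.40, edgeR adjusted p 0.143). pek-1 was at 0.02 (SE 0.09, 95% interval −0.19 to 0.24). ire-1 was at −0.09 (SE 0.09, 95% interval −0.30 to 0.11), the only member below 0. The ratio of xbp-1 to ire-1 in FPKM was 7.89 and 9.03 in ASP 3 and Control 3, and between 6.10 and 6.73 in the other 4 libraries. The ratio of pdi-2 to pdi-6 was 5.82 and 5.19 in number 3, above the 3.88 to 4.11 of the others. That of pdi-2 to crt-1 was also highest in number 3 (0.937 in ASP 3 and 0.802 in Control 3). Other ratios did not set number 3 apart. That of pdi-2 to pdi-1 was 3.25 in ASP 3 but 2.71 in Control 3, below 2.87 in Control 2. The ratio of ire-1 to pek-1 was 2.72 in ASP 3 and 2.55 in Control 3, with 2.66 in Control 1.

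**Figure D3:**
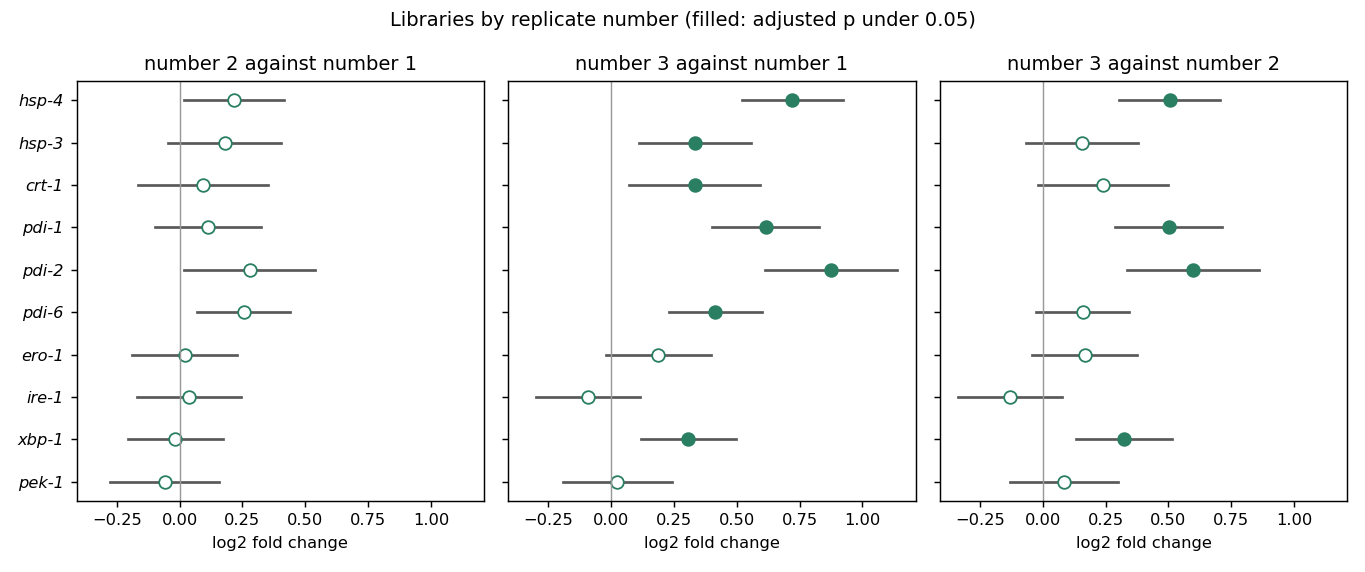
Log2 fold changes of the members between replicate numbers, from edgeR, with 95% intervals and filled points for an adjusted p under 0.05. In number 3 against number 1, 7 points are filled, led by pdi-2 at 0.88, hsp-4 at 0.72 and pdi-1 at 0.61.

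Other markers moved with the number as well. Between numbers 3 and 1, 12 of 12 molting markers were higher and passed (median log2 2.41), 6 of 6 vitellogenins were lower and passed (median −1.44), and 9 of 9 oocyte and eggshell genes were lower and passed (median −1.25). Of all tested genes, 18.3% passed as higher and 19.1% as lower. Between numbers 2 and 1, 12 of 12 molting markers also passed as higher (median log2 1.18), against 2.7% of all tested genes. There 4 of 9 oocyte and eggshell genes passed as lower (median −0.48), against 1.14% of all tested genes, and 0 of 6 vitellogenins passed. The part of the marker differences in the members' result was not tested. Between numbers 3 and 1, 8 of 10 cytosolic heat shock genes went the other way from hsp-4, with a log2 below 0 (median of the 10 −2.65). Of these 8, 7 passed, among them the small heat shock gene hsp-16.2, and hsf-1 (log2 −0.21) did not. The other genes, hsp-1 (0.31) and hsp-90 (0.12), were above 0 and did not pass. Between ASP and Control 9 of the 10 heat shock genes had a log2 below 0 (median −0.91), of which 0 passed and 0 had an unadjusted p under 0.05. Within numbers, ASP was below Control for 10 of the 10 genes in number 1, 9 in number 2 and 2 in number 3. The share of all tested genes below Control was not counted, but their median log2 was 0.02, −0.03 and 0.06 in these numbers. In number 3, hsp-70, hsp-16.2 and hsp-16.41 were under 1 FPKM in both libraries, such as hsp-16.2 at 0.349 in ASP 3 and 0.170 in Control 3. Among tissue markers between numbers 3 and 1, myo-3 of body wall muscle (1.33-fold), ges-1 of the intestine (1.30-fold) and glh-1 of the germ line (1.35-fold) were higher and passed. ifb-2 of the intestine (0.718-fold) and nos-2 of the germ line (0.289-fold) were lower and passed.

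Related genes were read from lists of the secretory pathway. Between ASP and Control, 0 genes of any of these lists passed in edgeR, and 0 had an unadjusted p under 0.05 in the 7 named lists. The 7 lists and the KEGG pathway of the table share genes, 40 of the 67 listed genes found in the table. Medians in log2 ran from −0.19 for the abu genes (1 higher, 9 lower of 10 tested) to 0.03 for the regulators of the unfolded protein response (5 higher, 2 lower of 7), against 0.00 over all tested genes. atf-6, the sensor gene not among the 10, stood at 4.67 ± 0.469 FPKM in ASP and 4.38 ± 0.658 in Control. atf-4, whose translation the PEK-1 branch controls, stood at 57.6 ± 2.04 and 57.02 ± 4.50 FPKM. Of the 145 tested genes that the table assigns to ER protein processing, members left out, 67 were higher and 78 lower in ASP, and 1 had an unadjusted p under 0.05. That gene was ubc-14, a ubiquitin-conjugating enzyme gene (36.6 ± 1.62 FPKM in ASP, 43.96 ± 1.77 in Control, edgeR adjusted p 0.9999).

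Number 3 also had more RNA than number 1 for other genes that fold, modify or translocate secreted proteins. Of 9 further ER chaperones and cochaperones, 9 had a log2 above 0 (median log2 0.27). Those that passed were 5, or 55.6% against 18.3% of all tested genes higher. They include dnj-27, an ER J-protein with thioredoxin domains, at 4.89 and 4.67 FPKM in ASP 1 and Control 1 and at 11.01 and 11.2 in ASP 3 and Control 3 (2.49-fold in edgeR). Of 8 isomerase and hydroxylation genes, 6 were higher and passed, or 75.0% against 18.3% (median 0.56). Among these, dpy-18, the collagen prolyl 4-hydroxylase alpha subunit that partners PDI-2, was 2.73-fold higher, and let-268, a lysyl hydroxylase for collagen, was 1.86-fold higher. Its fellow phy-2, another alpha subunit, was 1.56-fold higher. phy-3 (log2 −0.04) and the cyclophilin gene cyn-9 (−0.26) did not pass.

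Of 8 glycoprotein-folding genes, 8 had a log2 above 0 and 5 passed, or 62.5% against 18.3% of all tested genes (median 0.27). Among those that passed were the calnexin gene cnx-1 (1.34-fold) and the glucosyltransferase gene uggt-2 (2.53-fold). Of 9 translocon and signal peptide genes, 9 had a log2 above 0 and 5 passed, or 55.6% against 18.3% (median 0.29). Its gene trap-2, of the translocon-associated complex, was at 333 and 336 FPKM in number 1 and 501 and 513 in number 3. The lists of regulation and degradation had medians close to the −0.01 of all tested genes. Of the 7 genes listed as regulators, 2 passed as higher, or 28.6% against 18.3% of all tested genes (median −0.01). They were ckb-2 at 2.14-fold, listed there although it encodes a choline kinase, and crp-1, a small GTPase gene, at 1.45-fold. atf-6, atf-4, gcn-2, rtcb-1 and eif-2alpha did not pass. Of 15 genes of ER-associated degradation, 1 passed as higher, the derlin gene cup-2 (1.26-fold), and 1 as lower, hrdl-1 (0.789-fold), together 13.3% against 37.5% of all tested genes, with a median of 0.02. Members left out, the KEGG pathway had 33 genes higher and 21 lower among those that passed, 37.2% of 145 tested genes against 37.5% of all genes.

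The abu genes, named for their activation when the unfolded protein response is blocked, were tested for 10 of 11 listed. Between numbers 3 and 1, 9 of 10 had a log2 above 0 (median 0.21). Of these 4 passed, or 40.0% of the list against 18.3% of all tested genes higher. Between numbers 3 and 2, 8 of 10 passed, all higher in number 3 (median log2 0.84), or 80.0% against 12.1% of all tested genes. Between numbers 2 and 1, 9 of 10 had a log2 below 0, of which 1 passed (abu-8, log2 −0.66, edgeR adjusted p 0.0355), while abu-13 was higher and passed (log2 0.88, adjusted p 0.00918). The mean FPKM of a number was lowest in number 2 for 9 of the 10 abu genes. Among the members it was lowest in number 1 for hsp-3, hsp-4, pdi-1, pdi-2, pdi-6, ero-1 and crt-1. For xbp-1 it was lowest in number 2 (157 FPKM, against 159 in number 1 and 184 in number 3). For ire-1 and pek-1 it was lowest in number 3.

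**Figure D4:**
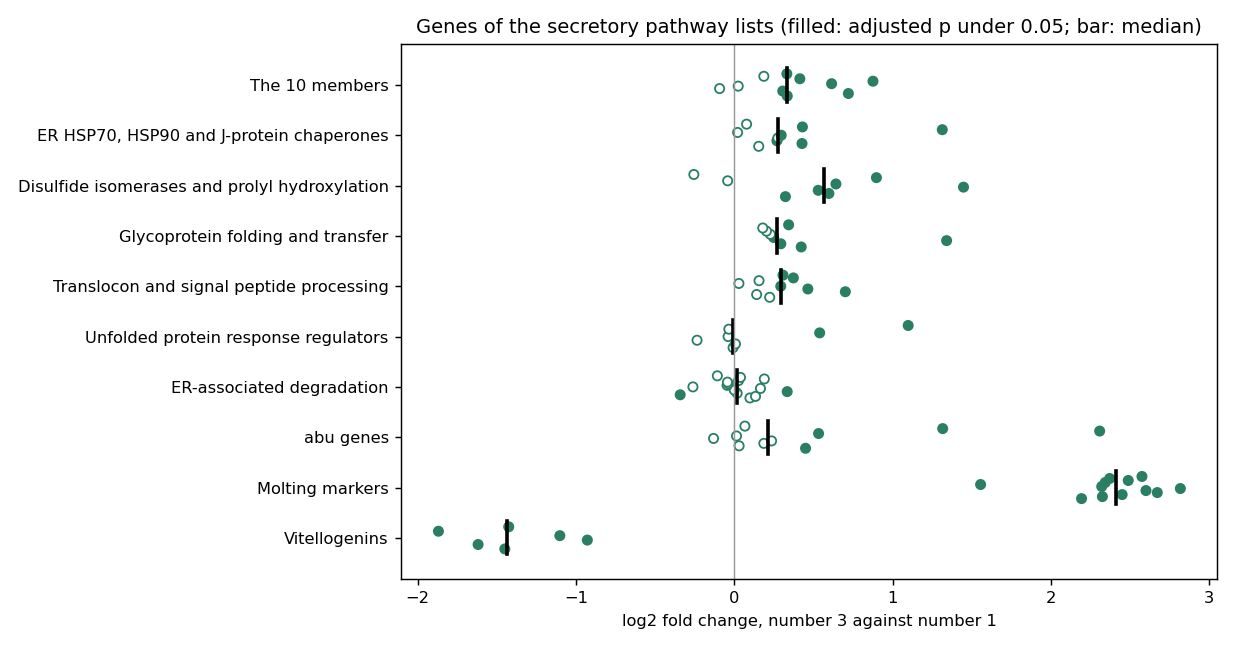
Log2 fold change in number 3 against number 1 for each tested gene of the members and of the related lists, with filled points for an adjusted p under 0.05 and bars for medians. The members and the folding, hydroxylation and translocon lists have medians from 0.27 to 0.56, and the abu genes 0.21. The regulator and degradation lists lie near 0, and the molting markers and vitellogenins lie farther out at 2.41 and −1.44.

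The genes whose pattern over the 6 libraries came closest to that of 3 members lay outside the ER pathway of the table. Likeness was the root mean square difference between centred log2(FPKM + 1) values, and small values are unavoidable among so many genes and only 6 libraries. For hsp-4 the closest were spds-1, a spermidine synthase gene (0.0225), F19C7.8 (0.0293), B0205.10 (0.0366), F35E2.9 (0.0399) and the zinc transporter gene zipt-7.2 (0.0427). For xbp-1 they were the fatty acid synthase gene fasn-1 (0.0187), the kinesin light chain gene klc-2 (0.0197), Y57G11C.36, ZK354.6 and pei-2. For pdi-2 they were the tryptophan dioxygenase gene tdo-2 (0.0233), noca-2, acox-1.4, his-20 and Y47D9A.1.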

How the data were processed

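Poly(A) RNA of whole N2 worms was sequenced in 6 libraries, 3 per group. Per the file headers, the authors deposited FPKM and counts for each gene in every library. The deposited counts were treated as estimated counts, already whole, and how the authors made them is not stated. Among tRNA and other short genes with deposited counts under 30, 99.3% to 99.6% per library lay 0 to 1 above FPKM times length times a constant (tolerance 0.02), so no counting intervals are given. The submitters' processing notes name CASAVA 1.4 and mouse builds, whereas the deposited chromosome accessions are those of WBcel235. For the aligner and counter, nothing is given in the sources used here. Start and end equalled those of the Ensembl annotation of WBcel235 for 9 and 8 of the 10 members.

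The 13790 genes averaging 1 FPKM or more were tested on the estimated counts with edgeR 4.0.16 (TMM, quasi-likelihood, R 4.3.3), with Benjamini-Hochberg adjustment over all of them and a threshold of 0.05. DESeq2 1.42.0, limma 3.58.1 on log2(FPKM + 1) or log2(FPKM + 0.1), RLE scaling, no filter, and each library left out in turn served as alternatives, and the code was tested on simulated data. The fit of ASP against Control has no replicate block. Deviations of same-numbered libraries from their group means correlated across genes (0.811, 0.524 and 0.822), so numbers were read as pairing the libraries. That reading comes from the data, not the labels. All 10 members are named, with up to 4 genes of each list that passed by smallest p. phy-2, phy-3, cyn-9, atf-6, atf-4, gcn-2, rtcb-1, eif-2alpha, hsf-1, hsp-1, hsp-90, hsp-70, hsp-16.2 and hsp-16.41 were named after their values were seen. Members and lists were chosen with earlier results of these data known. The list entries emo-1 and sec-61 did not match the table.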

Additional observations from a re-analysis of the deposited data

How the results depend on the processing

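For ASP against Control, the 10 members gave 0 calls under every alternative, with the replicate block (log2 from −0.09 to 0.06, 95% intervals within −0.30 to 0.23, lowest unadjusted p 0.23), and with each library left out. The replicate block changed no call. Over all genes the count of 0 became 3 without the libraries numbered 1 and 39 without those numbered 3, both with the block, and the cause was not tested. ero-1 turned to 0.032 without the libraries numbered 2, with the block. With 1 library left out, log2 ran from −0.11 to 0.065 for hsp-3, −0.31 to 0.15 for hsp-4, −0.16 to 0.066 for xbp-1, −0.00063 to 0.13 for ire-1, −0.27 to 0.15 for pdi-1, −0.36 to 0.21 for pdi-2, −0.19 to 0.020 for pdi-6, −0.11 to 0.0146 for ero-1 and −0.17 to 0.030 for crt-1. The hsp-4 to hsp-3 log2 ratio ran from −0.17 to 0.073.

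Between numbers, counts over all genes depended on the filter and tool. For number 2 against number 1, 530 genes became 9 without the filter, 875 in DESeq2, and 297 and 304 in limma with pseudocounts 1 and 0.1, and 78 to 1546 with 1 library left out. For number 3 against number 1, 5167 became 3116 without the filter, and 3253 to 5093 with 1 library left out. For number 3 against number 2, 3346 became 1195 without the filter, and 1402 to 3612. Of the 7 members called in number 3 against number 1, 4 were called without the filter, 4 in either limma fit, and 3 to 7 with 1 library left out. In limma, pek-1 turned to −0.068 and −0.075 with pseudocounts 1 and 0.1 (number 3 against 1) and to −0.0092 and −0.010 (number 3 against 2). With 1 library left out, pek-1 ran from −0.029 to 0.083 in number 3 against 1, and in number 2 against 1 xbp-1 ran from −0.052 to 0.018, ire-1 from −0.081 to 0.16 and ero-1 from −0.10 to 0.14. Each such fit between numbers leaves 1 number with 1 library, which is assumed to vary like the others.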
